A study of Homo sapiens with 8 samples.

Results

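Proteasome genes were described across 8 Affymetrix arrays of human HEL cells. A gene was a member where its platform symbol was PSMA, PSMB, PSMC, PSMD, PSME, PSMF or PSMG followed by a number and a probe set named that gene alone. That gave 42 members among 19775 genes named alone by a probe set, and 81 such probe sets; where a gene had several, the set of highest mean log2 signal stood for it. Of the 42, 41 were among the 14162 genes tested. The 42 comprised 7 genes of the 20S alpha ring, 7 of the 20S beta ring, 5 ATPases and 9 non-ATPase subunits of the 19S particle, 3 other activators and inhibitors, 7 assembly chaperones, and 4 immunoproteasome genes that were set apart (PSMB8, PSMB9, PSMB10 and PSME1). PSME2, the remaining immunoproteasome gene, and PSMA6, a subunit of the alpha ring, were named only by probe sets that also name another gene, and were not analysed here. PSMB11, PSMC5, PSMD7 and PSMD13 had no probe set naming them alone and were not analysed here either.

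HEL is a human erythroleukaemia line that carries an activating JAK2 mutation, and all groups were grown in RPMI with 10% fetal bovine serum. The first pair of arrays came from cells given CEP701 (lestaurtinib, which inhibits the kinases JAK2 and FLT3) at 0.5 µM for 16 h, and was set against a pair from cells given DMSO, the vehicle, for 16 h. The second pair came from a stable line carrying a pLKO lentivirus that expresses an shRNA against PRMT5, an arginine methyltransferase, and was set against a pair carrying a scramble control in the same vector. A single hairpin was used, and nothing in the labels says whether replicate arrays stem from separate cultures; the p-values therefore rest on the spread between these arrays alone, which may be technical. Values below are MAS5 signals, a brightness per probe set on a linear scale; differences are on the log2 scale after 10 was added to each signal, and a gene was called where the adjusted p of limma, fitted across all 14162 genes, was under 0.05.

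PRMT5 had signals of 664 and 315 on the PRMT5 shRNA arrays, against 1794 and 984 on the scramble arrays, a log2 difference of -1.52 ± 0.35 (SE) that did not pass (adjusted p = 0.217); with the shRNA arrays blocked by the suffix that their titles share, PRMT5 was called lower (adjusted p = 8.91e-05). Of 12 HEL markers, 8 were named alone by a probe set, and all 8 exceeded the minimum signal on every array. The 2 arms of the study stood apart: Pearson's r between arrays, across genes, was 0.804 to 0.845 between arms and 0.954 to 0.978 within them. The summed signal of 4 epithelial or fibroblast markers was 2412 to 3794 in the shRNA arm, against 394 to 561 in the drug arm. Of these, EPCAM and KRT19 were called higher with scramble than with DMSO, COL1A1 was called lower (-0.93; adjusted p = 0.00901) and COL1A2 was not called. The summed 3 T cell markers were 164 to 331 in the shRNA arm and 941 to 1318 in the drug arm. Most of the latter was CD2. By limma, CD2 was called lower with scramble than with DMSO (-2.90, adjusted p = 2.71e-05) and CD3D higher (2.29, adjusted p = 0.0138). The summed 2 B cell markers were 179 to 348 in the shRNA arm and 307 to 449 in the drug arm. Every measured marker of these lists exceeded the minimum signal on at least 1 array. The summed HEL markers were 44030 to 72272 in the shRNA arm, against 24847 to 26330 in the drug arm. PF4, a platelet gene, made this gap, with a mean of 35492 with scramble and 1853 with DMSO. By limma, 2 of the 8 HEL markers were called higher with scramble than with DMSO and 1 lower (25.5% and 20.3% of all genes). Those higher were PF4 and EPOR (1.20, adjusted p = 0.00209), and GATA1 was lower (-0.55, adjusted p = 0.0266). The ratio of 5' to 3' signal of actin, a measure of RNA integrity, was 0.116 and 0.161 with CEP701, against 0.199 and 0.198 with DMSO, and 0.187 and 0.335 with PRMT5 shRNA, against 0.141 and 0.179 with scramble. That of GAPDH was 0.787 and 0.856 with CEP701, against 0.882 and 0.809 with DMSO, and 0.729 and 0.778 with PRMT5 shRNA, against 0.846 and 0.883 with scramble. The part of these in the results below was not tested. In bulk RNA, fewer cells of a type and less RNA per cell cannot be told apart.

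The proteasome degrades proteins tagged with ubiquitin. Its 20S core is a stack of alpha rings, which gate the entrance, and beta rings, which hold the catalytic sites, and the 19S particle binds ubiquitin, removes it, and unfolds the substrate with a ring of ATPases. Cells exposed to interferon replace the constitutive catalytic subunits by PSMB8, PSMB9 and PSMB10, which with the PSME1-PSME2 cap form the immunoproteasome and change the peptides made for antigen presentation. When proteasome activity falls short, the transcription factor NFE2L1 induces subunit genes through antioxidant response elements in their promoters.

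With CEP701 the standard proteasome genes lay mostly below DMSO, while PSMB9 and PSME1 lay above it. Of 41 tested members, 2 were called lower (PSMD1 and PSMD11) and 0 higher, where 2.04% of all genes were called lower and 3.74% higher. The log2 difference was below 0 for 32 members (41.9% of all genes), and the members' median was -0.40, where that of all genes was 0.10. Without adjustment, 18 members had p under 0.05 in the lower direction (9.23% of all genes) and 3 in the higher one (14.8%). On 27 members both CEP701 arrays lay below both DMSO arrays (25.7% of all genes), and on 5 both lay above (36.3%). The interquartile range of the members was 0.46 on the log2 scale, where that of all genes was 0.70.

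How many members were called varied with the estimate of spread, which the shRNA arrays share. The count also varied with the scaling of the arrays and the choice of probe sets, as given in the closing section. With the 4 drug arrays fitted alone, 21 members were called lower and 2 higher (10.1% and 12.6% of all genes). With the shRNA arrays blocked by their suffix, 21 were called lower and 3 higher (9.71% and 12.6%). Without any 1 of the 4 drug arrays no member was called by limma, where 0.0424% to 0.353% of all genes were, so that these fits say little about the members; their median then lay between -0.39 and -0.25. Without either PRMT5 shRNA array 6 members were called (8.61% and 8.71% of all genes), and without either scramble array 7 (8.47% and 8.49%), all lower. Of 32 other probe sets over the filter, which belong to 19 of the members, 19 had the same sign as the probe set used and 13 the opposite one.

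**Figure D1:**
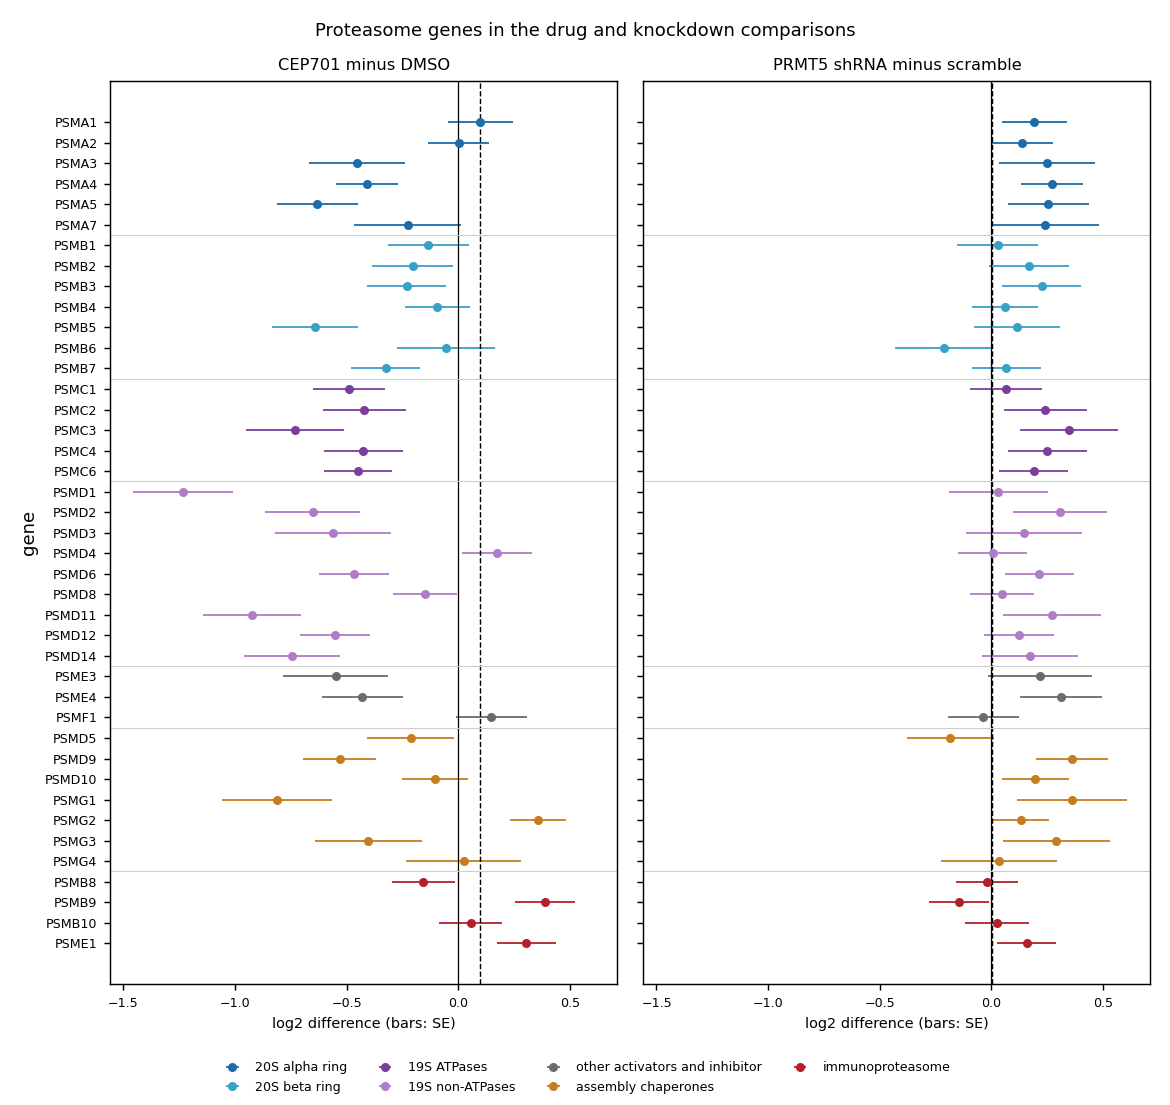
Log2 difference of each of the 41 tested proteasome genes (points; bars are the SE), for CEP701 minus DMSO on the left and PRMT5 shRNA minus scramble on the right. Colours mark the role of the gene, the solid line is 0 and the dashed line the median of all 14162 genes. On the left 32 points lie below 0, with PSMD1 lowest at -1.23; on the right 36 lie above 0 and none passed the test.

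The 19S non-ATPase subunits held both calls. PSMD1, a large scaffold subunit of the 19S base, had signals of 2914 and 2663 with CEP701, against 5795 and 7431 with DMSO. It was 2.35-fold lower with CEP701 (log2 difference -1.23 ± 0.22; adjusted p = 0.0191), and its other probe set, with a difference of -1.04, lay in the same direction. On the shRNA arm it had 5544 and 3476 with PRMT5 shRNA, against 4649 and 3966 with scramble. PSMD11, a subunit of the 19S lid that stabilises the contact with the core, had 3306 and 3167 with CEP701, against 6081 and 6208 with DMSO. It was 1.90-fold lower (-0.92 ± 0.22; adjusted p = 0.0440), and its dimmer probe set differed by -0.45. Its signals with PRMT5 shRNA were 3904 and 2829, against 3426 and 2213 with scramble, and these groups overlapped.

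PSMD14, the lid's deubiquitinase, had 9463 and 8910 with CEP701, against 14693 and 16118 with DMSO, a difference of -0.74 ± 0.21 that did not pass (adjusted p = 0.0736). PSMD2, the other large base scaffold, had 3423 and 3163 with CEP701, against 4880 and 5499 with DMSO (-0.65; adjusted p = 0.0982). Both lay below DMSO on every array, as did PSMD12 at -0.55, PSMD3 at -0.56 and PSMD6 at -0.47, all subunits of the lid and none of them called. PSMD8, another lid subunit, had 8172 and 7467 with CEP701, against 8798 and 8533 with DMSO (-0.15). PSMD4, a ubiquitin receptor, had 10517 and 9641 with CEP701, against 8830 and 9023 with DMSO. Its difference of 0.17 was the only one of the 9 non-ATPases above 0. It turned to -0.08 with arrays scaled to the same median, and its 2 other probe sets over the filter lay at -0.15 and -0.20. The median of the 9 was -0.56.

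In the shRNA arm all 9 non-ATPases lay above 0, from 0.01 for PSMD4 to 0.31 for PSMD2, and none was called. PSMD2 had 3177 and 2426 with PRMT5 shRNA, against 2748 and 1830 with scramble, PSMD14 had 7618 and 5167 against 6669 and 4645, PSMD8 had 5171 and 4360 against 4927 and 4286, and PSMD4 had 6041 and 4688 against 5702 and 4921. The first array of each group, which share a suffix, was the brighter one for all 4 genes, so that the groups overlapped. Within the pairs PSMD2 differed by 0.21 and 0.40, PSMD14 by 0.19 and 0.15 and PSMD8 by 0.07 and 0.02. Of the 9 non-ATPases, 7 were higher in both pairs (30.1% of all genes).

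The promoters of PSMD1 and PSMD11 are shown because these genes carried the calls with CEP701. Those of PSMG1, PSMD12 and PSMB9 are set beside them as members that hold the core letters of the antioxidant response element, TGACNNNGC; these 5 were chosen after values and matches had been seen. Each line gives the 250 bases before the annotated start from RefSeq (GRCh38.p14), 5' to 3' on the strand of the gene, with a match to TGACNNNGC on either strand in capitals.
PSMD1, chr2:231056617-231056866, plus strand: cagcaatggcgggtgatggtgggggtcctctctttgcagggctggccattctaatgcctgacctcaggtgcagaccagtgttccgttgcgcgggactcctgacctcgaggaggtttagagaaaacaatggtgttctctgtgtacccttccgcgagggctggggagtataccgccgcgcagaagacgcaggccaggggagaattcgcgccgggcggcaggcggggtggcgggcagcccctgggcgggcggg
PSMD11, chr17:32444260-32444509, plus strand: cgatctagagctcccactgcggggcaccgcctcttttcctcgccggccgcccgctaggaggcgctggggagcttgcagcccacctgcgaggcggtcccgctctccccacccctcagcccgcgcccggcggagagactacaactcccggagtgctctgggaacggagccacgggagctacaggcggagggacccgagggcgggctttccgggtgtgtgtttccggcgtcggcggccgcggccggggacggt
PSMG1, chr21:39183452-39183701, minus strand: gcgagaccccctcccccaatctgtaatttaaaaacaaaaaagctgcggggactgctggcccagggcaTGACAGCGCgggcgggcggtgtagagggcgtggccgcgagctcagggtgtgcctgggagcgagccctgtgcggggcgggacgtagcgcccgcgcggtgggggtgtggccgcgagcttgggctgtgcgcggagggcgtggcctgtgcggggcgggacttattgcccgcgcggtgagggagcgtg
PSMD12, chr17:67366578-67366827, minus strand: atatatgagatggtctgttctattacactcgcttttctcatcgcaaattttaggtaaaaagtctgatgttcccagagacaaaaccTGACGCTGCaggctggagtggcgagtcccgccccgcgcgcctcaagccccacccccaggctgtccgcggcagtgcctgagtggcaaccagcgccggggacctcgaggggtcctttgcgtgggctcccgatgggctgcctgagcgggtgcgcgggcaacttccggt
PSMB9, chr6:32853942-32854191, plus strand: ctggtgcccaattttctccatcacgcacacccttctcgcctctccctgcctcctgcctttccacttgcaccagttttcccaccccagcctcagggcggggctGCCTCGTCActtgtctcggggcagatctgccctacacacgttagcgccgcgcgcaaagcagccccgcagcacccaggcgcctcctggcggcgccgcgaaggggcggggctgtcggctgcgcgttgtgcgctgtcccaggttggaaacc
The windows of PSMD1 and PSMD11 hold no such run of letters. The first base of the match lies 183 bases before the start in PSMG1, 165 in PSMD12 and 148 in PSMB9, where it lies on the opposite strand. Of the 36 members with a promoter entry, 11 hold TGACNNNGC on either strand (30.6%), where 13.2% of 27305 genes do. The gamma-activated site TTCNNNGAA, which reads alike on both strands and which STAT factors bind, is in 7 members (19.4%, where 8.09% of all genes hold it), the interferon-stimulated response element (GAAA, any 2 bases, GAAA) in 4 (11.1%, where 3.71% do) and the CCAAT box in 16 (44.4%, where 37% do). Overlaps between these motifs were not removed. None of the 5 windows shown holds the gamma-activated or the interferon-stimulated letters. Matches of letters describe these windows and do not show that a factor binds.

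The 5 tested ATPases, which unfold the substrate and thread it into the core, all lay below DMSO with CEP701 without passing, within a narrow range from -0.73 to -0.42 and with a median of -0.45. PSMC3 had 2461 and 2626 with CEP701, against 4100 and 4355 with DMSO (-0.73 ± 0.22; adjusted p = 0.0823). PSMC4 had 2915 and 2788 with CEP701, against 3542 and 4148 with DMSO. PSMC1 had 4453 and 4293 with CEP701, against 6056 and 6226 with DMSO (-0.49; adjusted p = 0.105). PSMC2 had 7775 and 8003 with CEP701, against 11006 and 10130 with DMSO, the smallest difference of the 5 at -0.42; its 2 other probe sets over the filter lay at -0.03 and 0.13. On each of the 5 both CEP701 arrays lay below both DMSO arrays (25.7% of all genes). All 5 had an unadjusted p under 0.05 by limma (9.23% of all genes in the lower direction).

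Against scramble the same ATPases lay between 0.07 (PSMC1) and 0.35 (PSMC3), and none was called. PSMC3 had 3152 and 2085 with PRMT5 shRNA, against 2378 and 1706 with scramble, and PSMC2 had 12556 and 8846 with PRMT5 shRNA, against 10101 and 7861 with scramble. PSMC1 had 5739 and 4961 against 5876 and 4413 in the same groups, and PSMC4 had 2178 and 1818 against 1909 and 1460. Within the replicate pairs PSMC3 differed by 0.40 and 0.29, so that the difference was seen in both pairs although the groups overlapped.

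Among the alpha subunits, which form the gate of the core, the differences with CEP701 were uneven. PSMA5 had 6480 and 6305 with CEP701, against 9378 and 10461 with DMSO (-0.63 ± 0.18; adjusted p = 0.0736). PSMA4 had 16573 and 14557 with CEP701, against 21309 and 20006 with DMSO (-0.41; adjusted p = 0.111). PSMA3 lay at -0.46, while its dim other probe sets, over the minimum on 2 and 3 of the 8 arrays, lay at 0.18 and 0.83. PSMA7 lay at -0.23, with 27312 and 23856 with CEP701, against 28363 and 31475 with DMSO. For these 4 genes, at the probe sets used, both CEP701 arrays lay below both DMSO arrays (25.7% of all genes). PSMA1 had 20225 and 17988 with CEP701, against 19039 and 16666 with DMSO (0.10), and PSMA2 had 14727 and 12646 with CEP701, against 14153 and 13140 with DMSO (0.00 ± 0.14); on both the groups overlapped. PSMA8, the alpha subunit of the testis, failed the filter, with signals of 5.66 to 38.5 over the 8 arrays.

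All 6 tested alpha subunits lay above scramble with PRMT5 shRNA, from 0.14 (PSMA2) to 0.27 (PSMA4), and none passed. PSMA4 had 15547 and 13540 with PRMT5 shRNA, against 12967 and 11124 with scramble. It was the only one of the 6 whose groups did not overlap (14.1% of all genes lay above in this way). PSMA2 had 14269 and 12324 with PRMT5 shRNA, against 12480 and 11614 with scramble. PSMA5 had 6734 and 5392 against 5966 and 4278 in these groups, PSMA1 had 18956 and 17739 against 17833 and 14423, and PSMA7 had 11783 and 8068 against 10524 and 6464. Each of the 6 was higher in both replicate pairs (30.1% of all genes).

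The constitutive catalytic subunits of the beta ring differed among themselves with CEP701. PSMB5, which carries the chymotrypsin-like site that bortezomib binds, had 4545 and 4233 with CEP701, against 6347 and 7407 with DMSO (-0.64 ± 0.19; adjusted p = 0.0814). PSMB7, with the trypsin-like site, had 10047 and 9323 with CEP701, against 11984 and 12270 with DMSO (-0.32 ± 0.15; adjusted p = 0.234). PSMB6, with the caspase-like site, had 7656 and 6856 with CEP701, against 7325 and 7742 with DMSO (-0.06 ± 0.22), and its groups overlapped. Of the structural beta subunits, PSMB2 had 17926 and 16818 with CEP701, against 19762 and 20263 with DMSO (-0.20), and PSMB3 had 20713 and 17656 with CEP701, against 21594 and 23318 with DMSO (-0.23). All 7 beta subunits lay below 0, with a median of -0.20, and none was called.

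In the shRNA arm the beta subunits lay from -0.21 (PSMB6) to 0.22 (PSMB3), again with no call. PSMB6 had 5674 and 3684 with PRMT5 shRNA, against 6255 and 4491 with scramble. PSMB5 had 4435 and 3032 with PRMT5 shRNA, against 3683 and 3117 with scramble, and PSMB7 had 9112 and 7091 with PRMT5 shRNA, against 8340 and 7059 with scramble. PSMB2 had 11177 and 7909 against 9432 and 7419 in these groups, and PSMB3 had 11770 and 9273 against 10294 and 7760. On each of these 5 genes the groups overlapped.

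None of the 4 immunoproteasome genes passed the test with CEP701. Among them, only PSMB9 and PSME1 had both CEP701 arrays above both DMSO arrays, as had 36.3% of all genes. Of the 37 other members, 3 did so as well: PSMG2 (0.36), PSMD4 (0.17) and PSMF1 (0.15). PSMB9, an interferon-induced catalytic subunit that replaces PSMB6, had 6358 and 5998 with CEP701, against 4888 and 4556 with DMSO, a difference of 0.39 ± 0.13 (adjusted p = 0.119). PSME1, a subunit of the cap that opens the core without ubiquitin, had 7815 and 6988 with CEP701, against 5877 and 6091 with DMSO (0.30 ± 0.13; adjusted p = 0.198). PSMB10, which replaces PSMB7, had 2125 and 1909 with CEP701, against 1851 and 2030 with DMSO (0.05), and its groups overlapped. PSMB8, which replaces PSMB5, had 5067 and 4533 with CEP701, against 5392 and 5296 with DMSO (-0.16 ± 0.14). Both of its CEP701 arrays thus lay below both DMSO arrays (25.7% of all genes). For PSMB9 and PSME1 both CEP701 arrays lay above both DMSO arrays, and with the replicate block in the shRNA arm PSMB9 had adjusted p = 0.0185 and PSME1 0.0429; with the block in both arms these were 0.0254 and 0.0625. The sign depended on the scaling: with each array scaled to its poly-A spikes, when the median over all genes was -0.38, PSMB9 lay at -0.12 and PSME1 at -0.20, still above that median. The median of the 4 immunoproteasome genes was 0.18, and that of the 37 other members -0.42; the groups of genes were not tested against each other.

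With PRMT5 shRNA, PSMB9 had 2071 and 2170, against 2222 and 2472 with scramble (-0.14 ± 0.13), below on both arrays but not called (adjusted p = 0.909). PSME1 had 9288 and 8439 with PRMT5 shRNA, against 8381 and 7512 with scramble (0.16). PSMB8 had 3603 and 3349 with PRMT5 shRNA, against 3266 and 3799 with scramble (-0.02), and PSMB10 had 2278 and 2189 with PRMT5 shRNA, against 2228 and 2161 with scramble (0.02). The adjusted p of the 4 lay between 0.897 and 0.997.

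**Figure D2:**
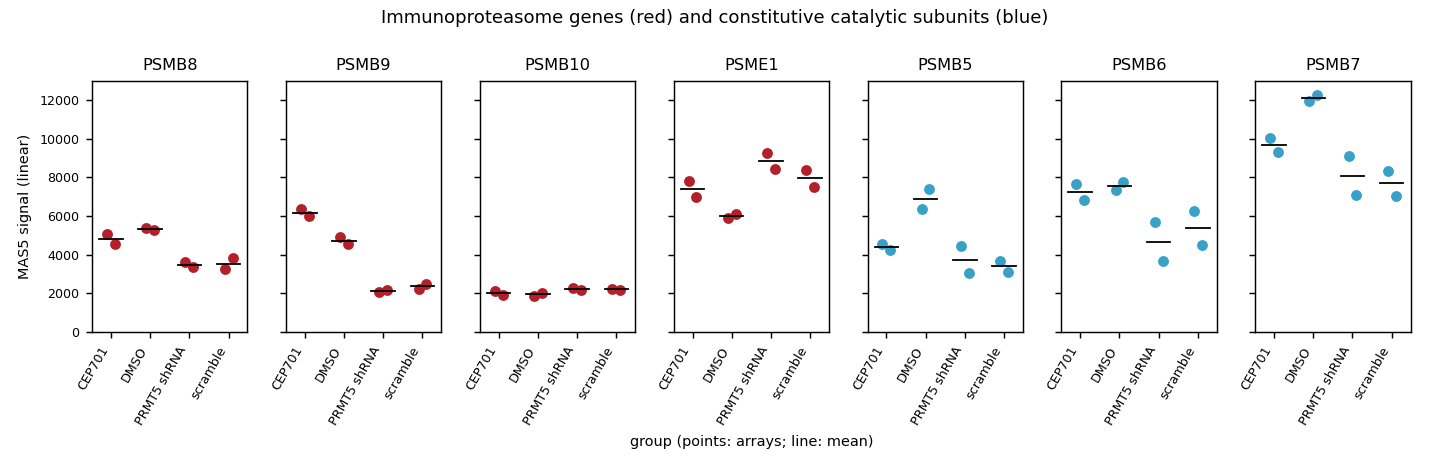
MAS5 signal (linear axis) of the 4 immunoproteasome genes in red and of the constitutive catalytic subunits PSMB5, PSMB6 and PSMB7 in blue, with 1 point per array and a line at the mean of each group of 2. PSMB9 lay at 6358 and 5998 with CEP701, against 4888 and 4556 with DMSO, whereas PSMB5 lay at 4545 and 4233, against 6347 and 7407; brightness is not comparable between genes.

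The assembly chaperones, which build the core and the base but are not part of the finished particle, lay on both sides of DMSO with CEP701. PSMG1, which pairs with PSMG2 to assemble the alpha ring, had 13925 and 11898 with CEP701, against 23541 and 21747 with DMSO (-0.81 ± 0.25; adjusted p = 0.0835). Its partner PSMG2 had 13202 and 11560 with CEP701, against 9727 and 9570 with DMSO (0.36 ± 0.12; adjusted p = 0.121). The groups did not overlap for either gene, and the partners lay on opposite sides of DMSO, except that PSMG2 lay at -0.15 with poly-A scaling. PSMD9, a chaperone of the base, lay at -0.53 and PSMG3, a further alpha-ring chaperone, at -0.40, while PSMG4, which pairs with PSMG3, lay at 0.02. PSMD5, a chaperone that binds ATPases of the base, had 1805 and 1404 with CEP701, against 1650 and 2066 with DMSO (-0.21), with overlapping groups. With PRMT5 shRNA, PSMG1 had 7466 and 4818, against 5857 and 3710 with scramble (0.36), and PSMG2 had 14986 and 13646, against 13057 and 13044 (0.13). PSMD5 had 1416 and 1128 with PRMT5 shRNA, against 1440 and 1436 with scramble (-0.18), and was 1 of 2 members, with PSMB9, for which both PRMT5 shRNA arrays lay below both scramble arrays (16.1% of all genes).

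Of the other activators, PSME3, a nuclear cap of the core, had 1394 and 1293 with CEP701, against 2140 and 1812 with DMSO (-0.55 ± 0.23; adjusted p = 0.190). PSME4, a nuclear activator linked to the breakdown of acetylated histones, had 2311 and 2919 with CEP701, against 3286 and 3739 with DMSO (-0.43), but its 2 other probe sets lay at 0.18 and 0.59. With PRMT5 shRNA, PSME3 had 1332 and 1056, against 1292 and 803 with scramble (0.22), and PSME4 had 2762 and 2107, against 1973 and 1911 (0.31). PSMF1, an inhibitor of the core, had 571 and 522 with CEP701, against 498 and 486 with DMSO (0.15), and 2588 and 2352 with PRMT5 shRNA, against 2669 and 2397 with scramble (-0.04).

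Over all members, the shRNA comparison gave no call. By limma, 0 of 41 members were called, where 0.148% of all genes were called in either direction, and 0 had an unadjusted p under 0.05, where 4.31% of all genes had one in the lower and 2.39% in the higher direction; the lowest adjusted p was 0.748, that of PSMD9. The differences lay between -0.21 and 0.36, with 36 above 0 (50.5% of all genes) and a median of 0.17, where that of all genes was 0.00. In both replicate pairs 30 members were higher (30.1% of all genes) and 4 lower (29.4%), and on 7 members both PRMT5 shRNA arrays lay above both scramble arrays (14.1%). Within the 2 same-suffix pairs this small upward median was 0.163 and 0.158. It moved when 1 array was left out, which unbalances the suffixes between the groups. It was -0.00379 without the first PRMT5 shRNA array and -0.00463 without the second scramble array, and reached 0.372 at most. The members' median log2 signal was 12.47 and 12.48 on the first-suffix PRMT5 shRNA and scramble arrays, against 12.09 and 12.07 on the second-suffix ones. With the replicate block in the shRNA arm no member was called either, where 1.74% of all genes were.

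Whether the effects of the drug and of the hairpin differed was tested as the difference between them, for which the arms share no array. By limma, 0 members were called (1.43% of all genes were), 19 had an unadjusted p under 0.05 in the lower direction (7.75% of all genes) and 1 in the higher one (12.1%). The members' median was -0.56, where that of all genes was 0.11. PSMD1 had the lowest adjusted p by limma, 0.0818, at a difference of -1.27 ± 0.31, followed by PSMD9 at 0.0906 and PSMD11 at 0.0912. The probe set used for PSMD9 lay at -0.53 with CEP701 and 0.36 with PRMT5 shRNA. Its dimmer probe set had the opposite signs, 0.06 and -0.47. With the shRNA arrays blocked by the suffix of their titles, 22 members were called, 21 of them lower (17.3% of all genes in either direction). Without the first scramble array 7 were called (5.71% of all genes), and without the second PRMT5 shRNA array 6 (3.63%).

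**Figure D3:**
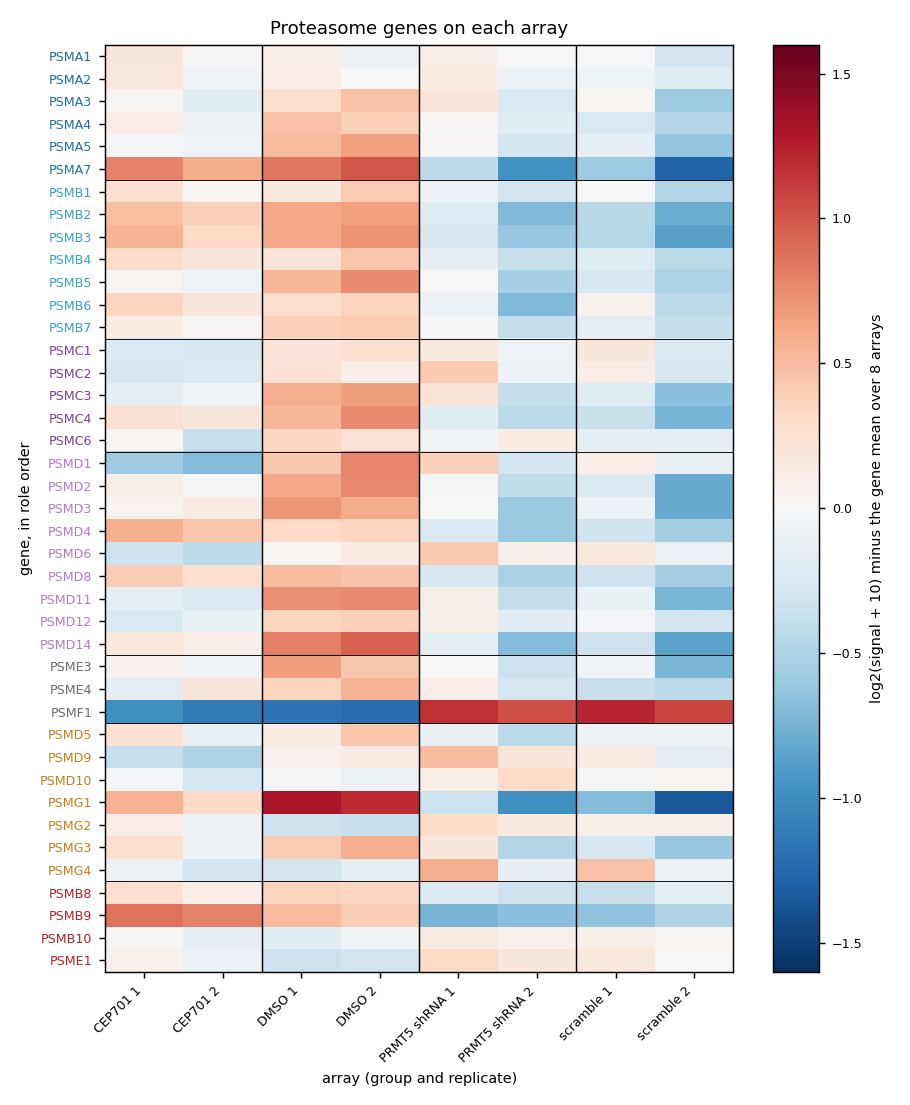
Log2 signal of the 41 tested proteasome genes (rows, coloured and ordered by role) on each of the 8 arrays (columns, by group), as the difference from the mean of that gene over the 8 arrays. Red is above and blue below that mean. DMSO columns are the reddest for most standard subunits, PSMB9 is highest with CEP701, and PSMG1 and PSMF1 separate the drug arm from the shRNA arm.

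The control groups themselves differed. Between scramble and DMSO, 27 of 41 members were called lower and 3 higher (20.3% and 25.5% of all genes), and 35 lay below 0 (45.4% of all genes), with a median of -0.64 where that of all genes was 0.11. This comparison shares its arrays with both comparisons above. The lines differ in vector, handling and possibly in the time of the arrays, which cannot be told apart. PSMG1 was 4.85-fold lower in scramble cells (mean 4783 ± 1519 with scramble and 22644 ± 1269 with DMSO, SD, n = 2 each; log2 difference -2.28 ± 0.25; adjusted p = 8.37e-05). PSMA7, an alpha subunit, was 3.62-fold lower (8494 ± 2871 and 29919 ± 2200; adjusted p = 2.42e-04). PSMD14 was 2.76-fold lower and PSMB3 2.51-fold lower.

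By role, 4 of 6 alpha subunits, 6 of 7 beta subunits, 3 of 5 ATPases and 8 of 9 non-ATPases were called lower in scramble cells (20.3% of all genes). None of these subunits was called higher (25.5% of all genes). The 20S genes PSMA1 (-0.15) and PSMA2 (-0.18) and the 19S gene PSMD6 (-0.06) were among those that did not pass. Of the immunoproteasome genes, PSMB9 fell to 2347 ± 177 with scramble, against 4722 ± 235 with DMSO (-1.01; adjusted p = 2.90e-04), and PSMB8 to 3532 ± 377, against 5344 ± 67.8 (-0.60; adjusted p = 0.00652). PSME1 was called higher (0.41; adjusted p = 0.0305), and PSMB10 was not called (0.18). PSMG2 was called higher too (0.44; adjusted p = 0.0178), opposite to its partner PSMG1. Of the 30 calls, 16 held under every alternative, PSMG1, PSMA7, PSMB9 and PSMD14 among them; those of PSME1 and PSMG2 did not.

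PSMF1 had the largest rise, 5.06-fold (2533 ± 192 with scramble and 492 ± 8.09 with DMSO; log2 difference 2.34 ± 0.16; adjusted p = 5.16e-06), at the probe set used for it. The gene's 3 other probe sets lay at -0.25, -0.25 and -0.86, and its probe sets thus disagreed in direction.

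**Figure D4:**
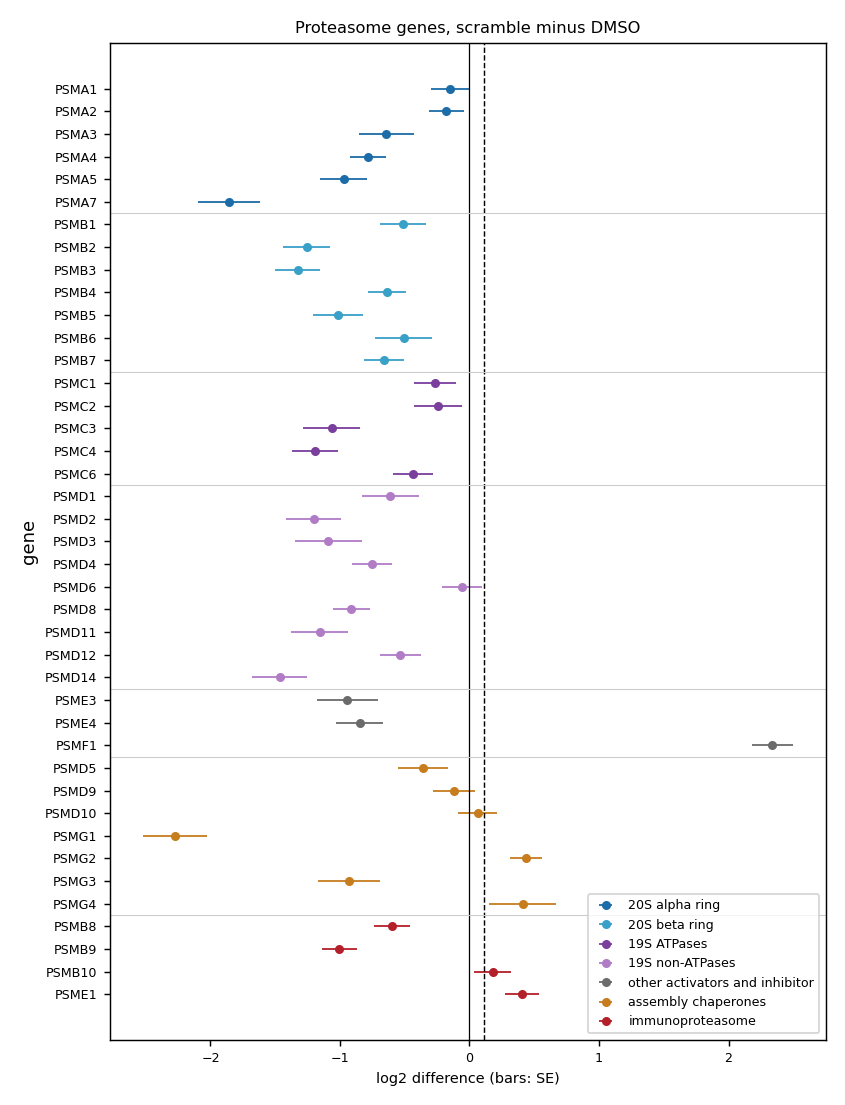
Log2 difference of each tested proteasome gene between scramble and DMSO (points; bars are the SE; colours mark the role). The solid line is 0 and the dashed line the median of all genes, 0.11. Of the 41 points, 35 lie below 0, and PSMG1 at -2.28 and PSMF1 at 2.34 mark the ends.

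**Figure D5:**
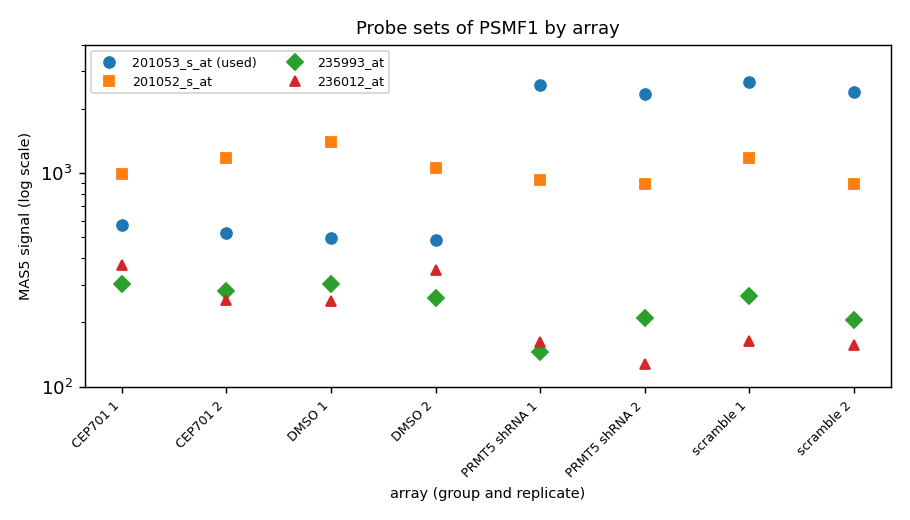
MAS5 signal (log axis) of the 4 probe sets of PSMF1 on each array. The probe set used for the gene lies at 2352 to 2669 on the shRNA arm and at 486 to 571 on the drug arm, whereas the other 3 do not lie higher on the shRNA arm.

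Genes that work with the proteasome were followed in a list of 35 partners and regulators, of which 29 were tested. With CEP701, 1 was called lower and 0 higher (2.04% and 3.74% of all genes), and the median was -0.30. That 1 was UCHL5, a deubiquitinase of the 19S particle, which had 2274 and 2149 with CEP701, against 4670 and 4720 with DMSO (-1.08 ± 0.25; adjusted p = 0.0418). ADRM1, the receptor that holds UCHL5 on the particle, lay at -0.48 and POMP, the maturation factor of the core, at -0.40, neither of them called. With the replicate block in the shRNA arm, 13 of the 29 were called lower, ADRM1 and POMP among them, and 1 higher (9.71% and 12.6% of all genes). NFE2L1 had 1185 and 1500 with CEP701, against 1147 and 1438 with DMSO (0.05 ± 0.18; adjusted p = 0.888), and 1180 and 1191 with PRMT5 shRNA, against 1716 and 1611 with scramble (-0.48 ± 0.18; adjusted p = 0.656). By limma, 0 of the 29 were called with PRMT5 shRNA (0.148% of all genes in either direction). Without adjustment 3 had p under 0.05, 2 of them lower and 1 higher (4.31% and 2.39% of all genes). With the replicate block 1 was called lower and 0 higher (1.74% of all genes in either direction). It was MAFF, a small MAF factor that pairs with NFE2L1 (-0.78, adjusted p = 0.0147 by limma with the block). MAFF had 1416 and 1681 with PRMT5 shRNA, against 2650 and 2644 with scramble. Between scramble and DMSO, 7 were called higher and 10 lower (25.5% and 20.3% of all genes). ADRM1 at -1.77, PITHD1, a protein that interacts with the proteasome, at -1.39 and MAFF at 2.08 were among them.

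Of 17 genes of antigen processing, 14 were tested. By limma, 1 of the 14 was called higher with CEP701 and 1 lower (3.74% and 2.04% of all genes). With CEP701, ERAP2, a peptidase that trims peptides in the endoplasmic reticulum, was called higher (106 and 113 with CEP701, against 47.8 and 32.8 with DMSO; log2 difference 1.26; adjusted p = 0.0244), and its DMSO signals lay below the minimum used to filter genes. CALR, a chaperone that helps load MHC class I, was called lower (3353 and 3469 with CEP701, against 5506 and 5773 with DMSO; -0.72; adjusted p = 0.0158). IRF1, a factor that induces PSMB9, lay at 0.27 with CEP701 (adjusted p = 0.535) and at -0.09 with PRMT5 shRNA (adjusted p = 0.991). The median of the 14 was 0.10 with CEP701, where that of all genes was 0.10. With PRMT5 shRNA 0 were called by limma (0.148% of all genes in either direction). At an unadjusted p under 0.05 there were 0, where 4.31% of all genes were lower and 2.39% higher. Between scramble and DMSO, 5 were called higher and 2 lower (25.5% and 20.3% of all genes). The peptidases ERAP2 (4.42) and ERAP1 (3.57) differed by the most.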

How the data were processed

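The authors deposited 1 signal intensity per probe set and array, made with MAS5 in Affymetrix Expression Console per the submitters' processing notes (versions not given); all arrays have the same trimmed mean. Per the labels' protocols, 200 ng of total RNA were labelled with biotin by a 3' IVT kit. Genome build: not given in the sources used here.

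To each signal 10 was added and log2 was taken. Genes were named from the platform annotation, with symbols updated through the Entrez ID to the RefSeq symbol where one was found. Probe sets naming several genes were left out. Genes entered the fit with a signal over 59.98 (the overall median) on 2 or more arrays. The 4 group means of the 8 arrays were fitted with limma 3.58.1 (lmFit, eBayes with a trend; 4 residual degrees of freedom) in R 4.3.3, with Benjamini-Hochberg adjustment over 14162 genes within a contrast. The calculation was tested on simulated data.

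The members, the lists and the tests were chosen with earlier results of these data known. Values on every array are given for 30 members: the immunoproteasome and constitutive catalytic genes, all called members (the 12 of lowest p where more were called in a contrast), and the extremes of each role. Deviations of same-suffix shRNA arrays correlated (r = 0.323), and those of same-numbered drug arrays did not (r = -0.0115). Alternatives were other added constants, filters, scalings, probe set choices, variance models, a replicate block and leaving out each array. The number of arrays limits the precision.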

Additional observations from a re-analysis of the deposited data

How the results depend on the processing

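With CEP701, the count of 2 called members became 1 with no filter on low values, with quantile normalization and with the mean of all probe sets (2.47%, 3.21% and 3.79% of all genes called). It became 0 without probe sets ending in _x_at or _s_at (30 members tested; 5.02% of all genes) and without the variance trend (1.18%). It became 10 with arrays scaled to the same median and 12 with arrays scaled to the poly-A controls, all lower (6.45% and 6.84% of all genes). It became 23 with the replicate block in both arms, 24 with the replicate block in the shRNA arm alone and 23 with the drug arrays alone (21.5%, 22.3% and 22.7% of all genes); leaving out 1 array gave 0 to 7 calls. The members' median with CEP701 was -0.65 with median scaling and -0.91 with poly-A scaling, which moved the median of all genes to -0.14 and -0.38; with the mean of all probe sets it was -0.23, and relative to all genes it was -0.53 to -0.33 over all alternatives. The median of the difference of effects became -0.79 and -1.10, and that of scramble minus DMSO -1.01 and -1.05, under these scalings. The replicate block gave 21 calls for the difference of effects in both arms and 22 in the shRNA arm alone (16.2% and 17.3% of all genes), and leaving out 1 array gave 0 to 7. With PRMT5 shRNA, no member was called under any of 22 alternatives, and leaving out 1 array gave medians from -0.00463 to 0.372; the median turned to -0.00379 without the first PRMT5 shRNA array and -0.00463 without the second scramble array. Between scramble and DMSO, leaving out 1 array gave 21 to 31 calls and medians from -0.78 to -0.54. PSMA3 turned to 0.10 with the mean of all probe sets, and PSMF1 to -0.25 without probe sets ending in _x_at or _s_at; the other probe sets of both genes differ in sign or size from the one used. The cause of the other changes was not tested. With CEP701, neither of the 2 called members changed sign under these alternatives, and with PRMT5 shRNA there was no called member. The sign held under every alternative for 27 of 41 members with CEP701 and for 17 of 41 with PRMT5 shRNA.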
